A study of Mus musculus with 9 samples.

Results

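Motor neurons captured from the spinal cord of SOD1-mutant mice were compared with motor neurons captured from wild-type mice, 3 arrays against 3. These were the arrays whose descriptions name captured motor neurons of either genotype, 6 of the 9 in the series, and 45037 probe sets that are not Affymetrix controls were considered on them, of which 27022 were bright enough to test. The other 3 arrays held whole cord of wild-type mice and show what level a gene has in the surrounding tissue. They did not enter the main fit. Their values did enter the brightness filter, the constant added to each signal and the choice of a gene's brightest probe set. Each array was hybridised with total RNA of Mus musculus.

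The wild-type group carries no stated modification, and the mutant group carries a SOD1 mutation whose allele the labels do not name. The labels do not say whether the mutant copy is a mouse or a human sequence, or how the neurons were recognised before capture. They also do not say whether arrays of a group share an animal, so the p-values speak of array-to-array spread, part of which may be technical. Every title holds the code D28, which no label explains, and the age, strain, sex and disease stage of the mice are not stated in the labels. Ventral spinal cord is the source given for all arrays, although the tissue arrays are described as total cord.

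SOD1 is the copper and zinc superoxide dismutase of the cytosol and of the mitochondrial intermembrane space, and inherited mutations in it cause a form of amyotrophic lateral sclerosis in which spinal motor neurons degenerate. Mutant protein misfolds, and chaperones, the proteasome and mitochondria of motor neurons have been studied as its targets. Astrocytes and microglia around the neurons also change in this disease, and laser capture, which cuts cell bodies out of a section, can carry fragments of such neighbours.

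The median signal of a probe set was 269 to 313 on the wild-type arrays and 274 to 366 on the mutant arrays. The background level of an array, set at the 95th percentile of its 27 Bacillus subtilis probe sets, was 131 to 147 on wild-type and 157 to 244 on mutant arrays. Above it lay 62.0% to 66.9% of probe sets on wild-type and 59.6% to 61.1% on mutant arrays. The median SD of log2 signal within a group was 0.28 in wild-type and 0.33 in mutant motor neurons, over 27022 probe sets. The 3′ to 5′ signal ratio of the Gapdh control transcript, a measure of how far back from the tail a transcript is read, averaged 4.03 ± 0.44 on the log2 scale in wild-type and 4.49 ± 0.15 in mutant neurons (SD, n = 3 each). The difference of 0.46 gave p = 0.2 by exact permutation over arrays, two-sided, where 3 against 3 can give no p below 0.1. For the Actb control the means were 4.53 ± 0.41 and 5.28 ± 0.59 (SD, n = 3 each), and the difference of 0.75 also gave an exact p = 0.2. On both controls the mutant mean was the higher. For Tfrc, another control, the means were 2.32 ± 1.29 and 2.64 ± 1.58 (SD, n = 3 each; exact p = 0.9). Whole cord stood at -0.28 ± 0.01 for Gapdh and 0.66 ± 0.03 for Actb (SD, n = 3 each), far below the captured neurons, and at 3.24 ± 0.70 for Tfrc, within their range. A level in cord set beside one in captured neurons carries the difference in Gapdh and Actb ratios, and the 2 cannot be told apart. The part of this ratio in the results below was not tested beyond a fit that carries it as a covariate.

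Sod1 itself, the gene named in the genotype, did not differ between the groups beyond the spread of their arrays. Its brightest probe set, 1459976_s_at, read 106588, 112179 and 110545 on the wild-type arrays, 93031, 132750 and 119180 on the mutant arrays and 36705, 36365 and 36034 in whole cord. The mutant and wild-type values overlapped, with a log2 change of 0.05 ± 0.14 (SE, n = 3 per group; limma, adjusted p = 0.894). Another bright probe set, 1451124_at, read 96983, 101356 and 101398 in wild-type and 84714, 131987 and 120343 in mutant neurons. Since neither the allele nor its species is given, these values do not check the genotype labels. Ccs, the chaperone that loads copper into SOD1, read 3763, 3527 and 5540 in wild-type and 2386, 3153 and 3266 in mutant neurons, a log2 change of -0.52 ± 0.22 that did not pass (limma, adjusted p = 0.300).

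In the limma fit, 51 of 27022 probe sets had an adjusted p under 0.05, or 0.189%, of which 34 were higher in mutant motor neurons (0.126%) and 17 lower (0.0629%). They named 41 genes, 26 higher and 15 lower, and 7 of the 51 probe sets carried no single gene symbol in the platform annotation. Changes are given on the scale of log2(signal + 20.3), which understates the change of dim probe sets. At an unadjusted p of 0.05, 4145 probe sets passed, or 15.3%, where a share of 0.05 of those tested is 1351, and the median change over all probe sets tested was -0.01. The balance of higher and lower calls moved with the scaling. After quantile normalization 29 were higher and 5 lower, and after centring each array on its median 7 were higher and 0 lower, with 3355 at an unadjusted p of 0.05. With the Gapdh control ratio as a covariate 31 were higher and 1 lower, of which 11 were among the 51. Other fits called more, 372 with the replicate number as a block, 1211 with the cord arrays in the same fit and 13743 with array weights. The number called also depended on single arrays: it was 8, 7 and 6 without wild-type replicates 1, 2 and 3, and 25, 29 and 7 without mutant replicates 1, 2 and 3. Without wild-type replicate 1, 2 or 3, or without mutant replicate 3, all calls were higher. All 51 probe sets kept their direction in every one of the 18 alternatives in which they were tested. They were picked by their separation on these same arrays, so this describes them and tests nothing further.

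**Figure D1:**
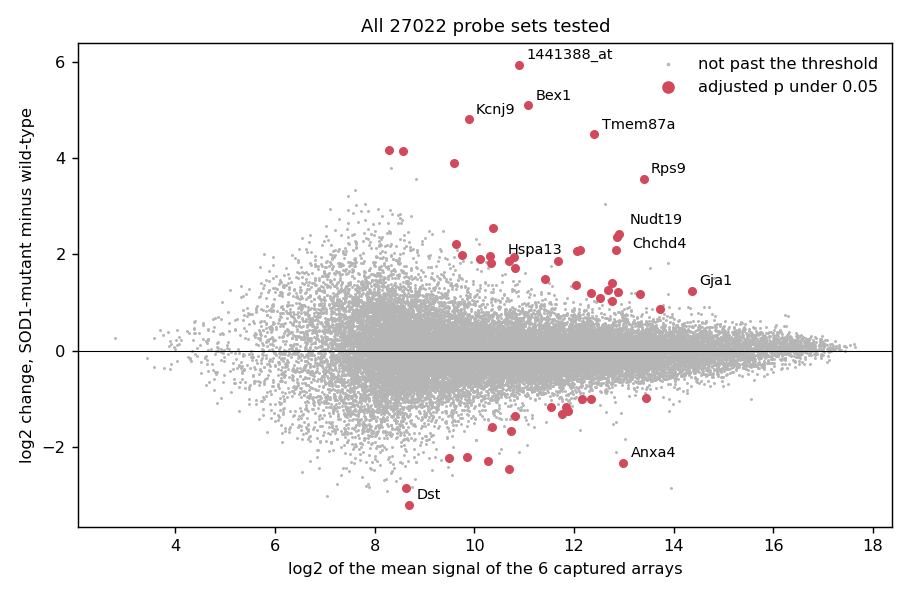
Change between the genotypes, as log2 of SOD1-mutant minus wild-type motor neurons, against the log2 mean signal of the 6 captured arrays, for each of the 27022 probe sets tested. The 51 red points passed an adjusted p of 0.05, and Tmem87a, Rps9, Nudt19 and Chchd4 stand apart from the other probe sets of similar signal.

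The plot of change against signal shows where the called probe sets lie. Among dim probe sets a change had to be large to pass, and among bright ones a change near 1 on the log2 scale passed. The largest changes of dim probe sets rest on values close to background.

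Only 6 of the 51 probe sets passed the threshold without each of the 6 arrays in turn, and all 6 were higher in mutant neurons. They belonged to Tmem87a, Nudt19, Rps9, Chchd4 and Hspa13 and to a probe set that the annotation gives no gene, 1441388_at. Tmem87a, Nudt19 and 1441388_at passed in all 18 alternatives, and the other 3 passed in 17. Because the genes were picked by how they behaved, these counts describe them and test nothing further.

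Tmem87a, which encodes a membrane protein of the Golgi, had the strongest change by p. Its only probe set, 1424454_at, read 463, 372 and 471 on the wild-type arrays, 12639, 7535 and 11138 on the mutant arrays and 1028, 1152 and 953 in whole cord. Every mutant array lay far above every wild-type and every cord array. Signal was 22.5-fold higher in mutant neurons (log2 change 4.49 ± 0.24, SE, n = 3 per group; limma, adjusted p = 9.26e-05). Its RefSeq promoter in GRCm38.p6, minus strand at chr2:120404067-120404366, from 250 bases before to 50 after the start, is shown because this gene had the smallest p.
Tmem87a: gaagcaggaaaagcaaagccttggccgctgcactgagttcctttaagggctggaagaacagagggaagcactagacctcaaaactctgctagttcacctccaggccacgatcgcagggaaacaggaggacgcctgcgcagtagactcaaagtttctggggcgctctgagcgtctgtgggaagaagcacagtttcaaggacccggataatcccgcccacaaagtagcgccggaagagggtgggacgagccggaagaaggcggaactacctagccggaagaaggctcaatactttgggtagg

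Chchd4 encodes the oxidoreductase MIA40 of the mitochondrial intermembrane space, which traps incoming cysteine-rich proteins by forming their disulphide bonds, Ccs among them. Its only probe set, 1417233_at, read 2078, 2653 and 2557 in wild-type neurons, 11448, 12123 and 14170 in mutant neurons and 1820, 2022 and 1835 in whole cord. The mutant arrays lay above all wild-type and all cord arrays. The gene rose 5.15-fold (log2 change 2.36 ± 0.17, SE, n = 3 per group; limma, adjusted p = 0.000279). Its promoter on the minus strand at chr6:91473374-91473673, with the same bounds, is shown for the gene on the list of mitochondrial import that changed.
Chchd4: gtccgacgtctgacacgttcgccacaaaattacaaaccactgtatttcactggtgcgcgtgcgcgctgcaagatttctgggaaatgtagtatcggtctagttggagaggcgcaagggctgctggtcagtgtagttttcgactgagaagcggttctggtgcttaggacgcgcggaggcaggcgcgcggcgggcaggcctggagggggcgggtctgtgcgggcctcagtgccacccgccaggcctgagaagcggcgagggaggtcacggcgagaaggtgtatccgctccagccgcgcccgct

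Nudt19 encodes a hydrolase of peroxisomes that cleaves coenzyme A. Probe set 1434216_a_at read 2183, 2645 and 2376 in wild-type neurons, 13537, 12258 and 12773 in mutant neurons and 4345, 4858 and 5188 in whole cord, a rise of 5.33-fold (log2 change 2.41 ± 0.15, SE; limma, adjusted p = 0.000211). The other probe set of the gene, 1432332_a_at, did not show it: it read 2335, 3088 and 2862 in wild-type and 4143, 2697 and 3697 in mutant neurons, and these values overlapped (limma, adjusted p = 0.492). A rise of the transcript as a whole was therefore not measured for Nudt19.

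Rps9, a protein of the small ribosomal subunit, also split by probe set. The called probe set, 1434624_x_at, read 1325, 1513 and 2109 in wild-type, 17858, 26742 and 15408 in mutant neurons and 618, 983 and 1078 in cord, 11.9-fold higher in the mutant (log2 change 3.57 ± 0.24, SE; limma, adjusted p = 0.000211). The brightest probe set, 1433689_s_at, read 11829, 13273 and 12871 in wild-type and 7799, 10834 and 9238 in mutant neurons, so that it pointed the other way without passing (limma, adjusted p = 0.209). Affymetrix gives the ending _x_at to probe sets with probes that can bind unrelated sequences, and what this probe set reads was not tested. None of the 25 cytosolic ribosome genes tested was called on its brightest probe set, and 13 of them had a positive and 12 a negative change.

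Hspa13, a chaperone of the HSP70 family bound to the endoplasmic reticulum, was read by 3 tested probe sets. On 1453172_at the signal was 1720, 1632 and 1714 in wild-type, 6477, 7062 and 8209 in mutant neurons and 1736, 1481 and 1613 in cord. This probe set rose 4.23-fold (log2 change 2.08 ± 0.17, SE; limma, adjusted p = 0.000965). The brightest, 1433772_at, read 6604, 6337 and 7585 in wild-type and 9534, 5608 and 6656 in mutant neurons, which overlap (limma, adjusted p = 0.923). The remaining one stood at 1.33-fold (adjusted p = 0.683).

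Probe set 1441388_at was dark in wild-type tissue of both kinds. It read 32, 26 and 78 in wild-type neurons and 20, 51 and 28 in cord, below background on all 6 arrays, and 4118, 3490 and 3726 in mutant neurons. This makes it at least 23.8-fold higher in the mutant, measured against the background level (limma, adjusted p = 0.000211). Of the 7 called probe sets without a single gene symbol, 5 were higher and 2 lower, the latter being 1436467_at, at 2096, 2081 and 2029 in wild-type and 542, 263 and 471 in mutant neurons, and 1433685_a_at, at 5732, 4661 and 4964 against 1933, 2526 and 2333.

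**Figure D2:**
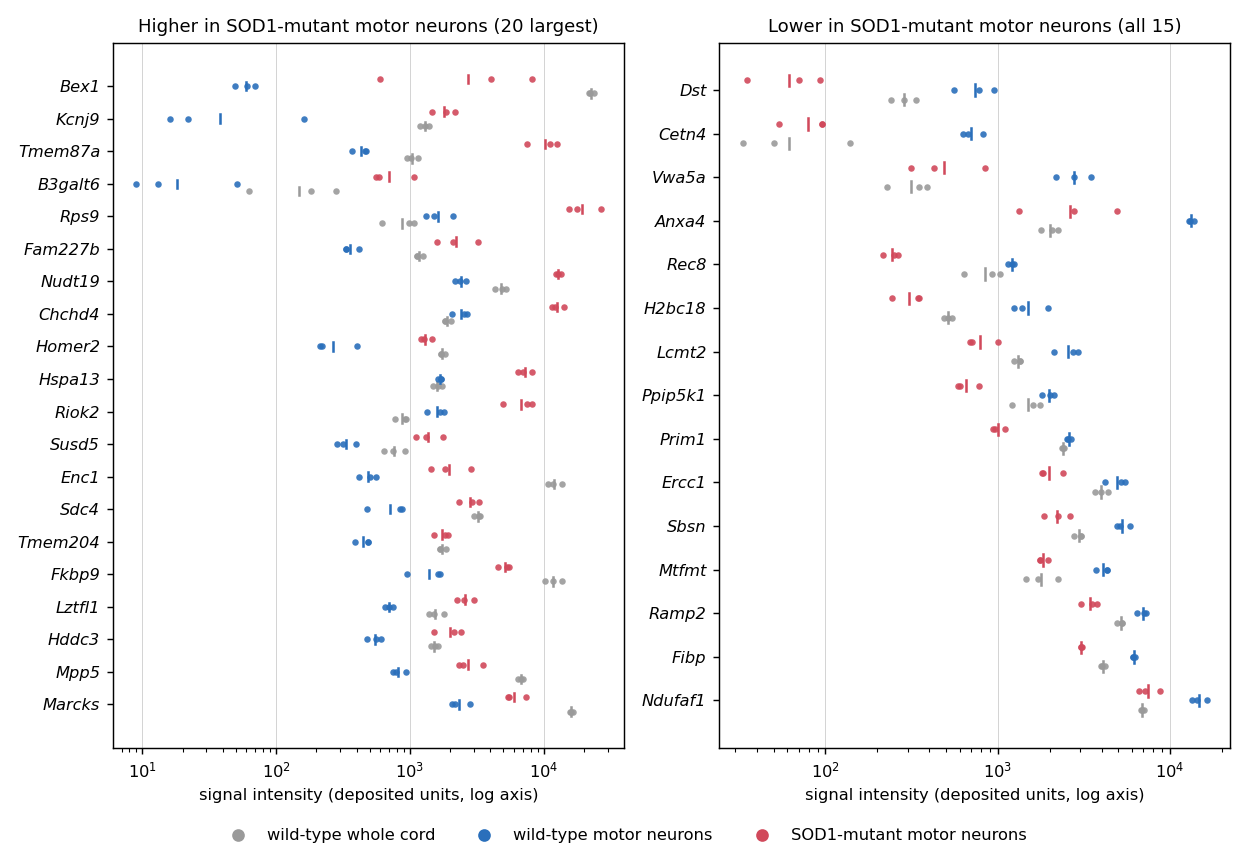
Signal on each array, in deposited units on a log axis, for the 20 genes of largest rise and the 15 genes that fell. Each gene is ranked and drawn on its called probe set of smallest p. Points are single arrays of whole cord, wild-type and mutant motor neurons, and the short vertical lines are means of log2 signal; mutant and wild-type points do not overlap for any gene shown.

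In the plot of called genes the right panel holds every gene that fell and the left the 20 largest rises. The next paragraphs take them by what their proteins do. Outside the 6 probe sets above, each call was lost without at least 1 of the 6 arrays, so single arrays decide whether these genes pass.

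Kcnj9 encodes a G-protein-gated inward rectifier potassium channel subunit. It read 161, 22 and 16 in wild-type, 1467, 2172 and 1854 in mutant neurons and 1296, 1385 and 1186 in cord (log2 change 4.81 ± 0.61, SE; limma, adjusted p = 0.0262). Wild-type signal was above background on 1 of 3 arrays, and a second tested probe set of the gene had the opposite sign and did not pass (0.563-fold, adjusted p = 0.505). Kcnj10, the main inward rectifier of glia, lies next to Kcnj9 in the order of tested genes on chromosome 1. It read 6598, 6056 and 5987 in wild-type, 17925, 12371 and 12383 in mutant neurons and 34908, 33214 and 42992 in cord, a rise of 2.25-fold (limma, adjusted p = 0.0398). Homer2, a postsynaptic scaffold of metabotropic glutamate receptors, read 401, 220 and 214 in wild-type and 1271, 1453 and 1212 in mutant neurons (4.63-fold, limma, adjusted p = 0.0460). Marcks, an actin-linked substrate of protein kinase C, read 2069, 2813 and 2175 against 7314, 5374 and 5507, with 15807 to 16545 in cord (2.56-fold, limma, adjusted p = 0.0398), and all 6 of its tested probe sets were higher in the mutant mean.

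Bex1, a small X-linked adaptor protein of neurons, was the most uneven of the rises. It read 49, 61 and 70 on the wild-type arrays, below background, and 593, 8241 and 4041 on the mutant arrays, against 21645, 23900 and 22234 in cord. The mutant arrays thus differed widely among themselves. Taken on the group mean of log2 values, and not on each array, the rise was at least 17.2-fold (limma, adjusted p = 0.0426). B3galt6, a galactosyltransferase that builds the linker of proteoglycan chains, read 51, 9 and 13 in wild-type and 557, 1071 and 585 in mutant neurons, at least 4.55-fold higher (limma, adjusted p = 0.0398). The other tested probe set of B3galt6, the brighter in wild-type neurons, pointed the other way without passing, at 802, 349 and 564 against 301, 137 and 364 (adjusted p = 0.330). Sdc4, a cell-surface proteoglycan, read 842, 482 and 868 against 2324, 3272 and 2889, with 3028 to 3345 in cord (3.88-fold, limma, adjusted p = 0.0398). Its other tested probe set overlapped between genotypes at 1274, 285 and 573 against 622, 479 and 527 (adjusted p = 0.920). Enc1, an actin-binding kelch protein, read 416, 556 and 500 against 1427, 2860 and 1842, with 10716 to 13690 in cord (3.90-fold, limma, adjusted p = 0.0476).

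Riok2, a kinase needed to mature the small ribosomal subunit, read 1801, 1687 and 1336 in wild-type and 8152, 7516 and 4980 in mutant neurons, with 774 to 935 in cord (4.18-fold, limma, adjusted p = 0.0130). A brighter probe set of Riok2 stood at 0.869-fold and did not pass. Its relative Riok3 was called on 2 of 4 tested probe sets, the brighter reading 9995, 8792 and 9821 against 18608, 18296 and 15494 (1.83-fold, limma, adjusted p = 0.0460), the smallest rise called. Fkbp9, a prolyl isomerase of the endoplasmic reticulum, read 958, 1691 and 1632 against 5293, 4565 and 5481, with 10283 to 13659 in cord (3.64-fold, limma, adjusted p = 0.0288). Lztfl1, which regulates protein traffic in cilia, read 648, 754 and 704 against 3000, 2269 and 2546 (3.62-fold, limma, adjusted p = 0.0258). Mpp5, a scaffold of cell polarity, read 746, 792 and 928 against 2311, 3495 and 2515 (3.28-fold, limma, adjusted p = 0.0398), but its brightest probe set stood at 0.956-fold.

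The remaining rises were Fam227b (5.86-fold), Susd5 (3.96-fold), Tmem204 (3.76-fold), Hddc3 (3.53-fold), Dym (2.33-fold), Phtf1 (2.31-fold), Gja1 and Hspa1b, the last pair described below with their lists. Kcnj10, Riok3, Dym and Phtf1 fall outside the rule for named genes and were named after their values were seen. Dym encodes dymeclin, a protein of the Golgi. It read 4286, 4850 and 4423 against 9805, 10954 and 10924 on the called probe set, and a brighter one stood at 0.947-fold.

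Among the 15 falls, Dst had the largest. Dst encodes dystonin, a giant linker of actin, intermediate filaments and microtubules in sensory and motor axons. Probe set 1450119_at read 776, 554 and 946 in wild-type and 35, 93 and 70 in mutant neurons, below background on all 3 mutant arrays, at least 3.63-fold lower (limma, adjusted p = 0.0426). Its other dim probe sets also had lower mutant means, 1343, 2028 and 1616 against 346, 529 and 465 on 1421117_at (limma, adjusted p = 0.0503). The brightest, 1423626_at, did not: it read 47238, 42536 and 43677 in wild-type and 47275, 53816 and 51236 in mutant neurons. The probe sets of Dst thus differ, and a fall of the transcript as a whole was not measured.

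Anxa4, a calcium-dependent membrane-binding protein, was the brightest of the strong falls. It read 13843, 13048 and 12887 in wild-type, 1321, 4940 and 2753 in mutant neurons and 2245, 1780 and 2070 in cord, 5.02-fold lower in the mutant (log2 change -2.33 ± 0.37, SE; limma, adjusted p = 0.0476). Its other probe sets read 16387, 20663 and 21946 against 7765, 25757 and 15112, which overlap, and 3074, 3671 and 3797 against 775, 1619 and 1212 (limma, adjusted p = 0.0596). All 3 tested probe sets of Anxa4 had the lower mean in the mutant. Vwa5a read 3471, 2182 and 2782 against 847, 314 and 429, with 229 to 390 in cord (5.49-fold lower, limma, adjusted p = 0.0411).

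Rec8, a cohesin subunit of meiosis, read 1212, 1153 and 1246 in wild-type and 263, 250 and 215 in mutant neurons (4.67-fold lower, limma, adjusted p = 0.0398). H2bc18, a histone H2B gene, read 1382, 1248 and 1964 against 243, 347 and 344 (4.65-fold lower, adjusted p = 0.0398). Prim1, the catalytic subunit of DNA primase, read 2530, 2548 and 2672 against 938, 963 and 1103 (2.55-fold lower, adjusted p = 0.0426). On the called probe sets of these genes no mutant array reached a wild-type one, but the other tested probe set of Prim1 overlapped, at 2036, 1625 and 1491 against 982, 1117 and 1626 (adjusted p = 0.413). Ercc1, part of the nuclease of nucleotide excision repair, read 4201, 5485 and 5214 against 2396, 1821 and 1795 (2.47-fold lower, adjusted p = 0.0426), and its brighter probe set 6146, 9119 and 7445 against 5403, 6123 and 6102 (adjusted p = 0.371). Cetn4, a centrin, read 821, 626 and 675 against 54, 95 and 96, below background on all mutant arrays and at least 3.45-fold lower on its called probe set (limma, adjusted p = 0.0458). The brightest probe set of Cetn4 read 10910, 10440 and 11953 against 15023, 9496 and 11280, which overlap (adjusted p = 0.866), so a fall of the transcript as a whole was not measured.

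Ndufaf1, an assembly factor of respiratory complex I, read 16418, 13361 and 14406 in wild-type and 8765, 7185 and 6556 in mutant neurons, with 6769 to 7038 in cord (1.97-fold lower, limma, adjusted p = 0.0482). Mtfmt, which formylates the initiator methionyl-tRNA of mitochondria, read 4319, 3693 and 4326 against 1757, 1764 and 1944 (2.24-fold lower, adjusted p = 0.0426). Ppip5k1, an inositol pyrophosphate kinase, read 2014, 2129 and 1802 against 603, 776 and 588 on the called probe set (2.98-fold lower, adjusted p = 0.0460), while the change of its brightest one was -0.20 on the log2 scale. On their called probe sets no mutant array of these genes reached a wild-type one. The brightest probe set of Ppip5k1 overlapped, at 5300, 5750 and 5554 against 4493, 5391 and 4611. The other tested probe set of Mtfmt also overlapped, at 943, 482 and 1156 against 900, 616 and 1248 (limma, adjusted p = 0.908). Lcmt2, which acts in the modification of a transfer RNA, was 3.20-fold lower, Ramp2, a partner of calcitonin-type receptors, 2.01-fold lower, Fibp, a fibroblast growth factor binding protein, 2.01-fold lower, and Sbsn 2.38-fold lower.

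Probe sets of the same gene often differed. Of the 41 called genes, 12 had 1 tested probe set and 29 had 2 or more. Of those 29, only 3 (Gja1, Hspa1b and Riok3) had 2 or more called, 12 had another probe set whose change had the opposite sign (Rps9, Riok2, Dym, Lztfl1, Kcnj9, Mpp5, B3galt6, Sdc4, Fibp, Dst, Mtfmt and Cetn4), and 17 had all probe sets of the same sign. No gene was called in both directions. Probe sets ending in _x_at made up 15.7% of those called and 6.36% of those tested, and those ending in _a_at, which read several transcripts of a gene, 23.5% and 12.8%. Taking the brightest probe set of each gene, 26 of 12916 genes were called (0.201%), 17 higher (0.132%) and 9 lower (0.0697%). Averaging all tested probe sets of a gene before the fit left 15 genes, 8 higher and 7 lower.

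Several called genes lay within a stretch of chromosome 2, though none of them was next to another. On the whole of chromosome 2, 6 of 1924 tested probe sets were called (0.312%), and chromosomes 7, 10, 17 and 18 had higher shares. From Ndufaf1 to Fam227b in the gene order of GRCm38.p6 there were 57 tested genes, and 5 of them had a called probe set (8.77%): Tmem87a and Fam227b were higher, and Ndufaf1, Lcmt2 and Ppip5k1 lower. Over all 12857 tested genes placed on the assembly, 41 did (0.319%; over all 12916 genes, 0.317%). On brightest probe sets, 20 of the 57 had an unadjusted p under 0.05, against 2184 of 12857. Pdia3 and B2m, given with their lists below, lie in the same stretch. Its ends were set at called genes after their values were seen, so that the counts are a description without a test.

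**Figure D3:**
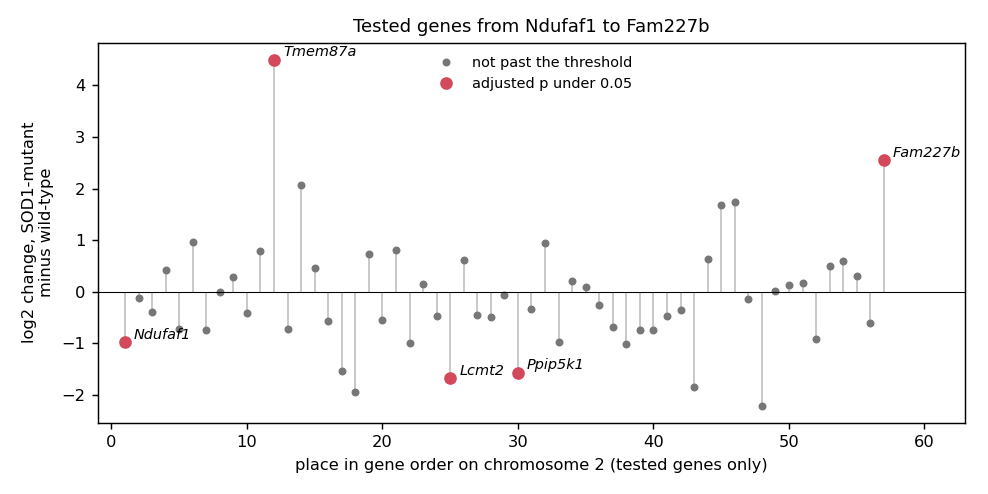
Log2 change, SOD1-mutant minus wild-type motor neurons, of the 57 tested genes from Ndufaf1 to Fam227b in their order on chromosome 2, for the probe set of smallest p of each gene. Red points mark the 5 genes past an adjusted p of 0.05; changes of both signs occur along the stretch, and Tmem87a reaches 4.49.

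In the plot along chromosome 2 the called genes are separated by genes that did not pass, with 10 tested genes between Ndufaf1 and Tmem87a, 12 between Tmem87a and Lcmt2, 4 between Lcmt2 and Ppip5k1 and 26 from there to Fam227b.

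No gene of motor neuron identity passed. Of 25 tested genes of a motor neuron and cholinergic list none was called in either direction, 11 had a positive and 14 a negative change, and the median log2 change was -0.02, against -0.01 over all genes tested. At an unadjusted p of 0.05, 2 of the 25 were higher and 6 lower, where 8.3% and 8.66% of all 12916 genes were. The summed signal of the list was 513401 to 536217 on wild-type and 511608 to 534411 on mutant arrays, and 114528 to 125862 in cord. Chodl, a marker of fast motor neurons, read 73781, 65308 and 68657 in wild-type and 75305, 64125 and 71550 in mutant neurons. Mmp9, a protease of vulnerable fast motor neurons, read 17468, 17430 and 15016 against 15591, 16890 and 15180 on its brightest probe set. Isl1, a transcription factor of motor neuron fate, read 15527, 10799 and 13087 against 10193, 18056 and 13939, and on these brightest probe sets the values of all 3 genes overlapped between genotypes. A second Mmp9 probe set had separate groups, at 7510, 7697 and 7834 against 4497, 3217 and 5168, and did not pass (1.82-fold lower; limma, adjusted p = 0.107).

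Some genes of that list had separate groups without passing. Slc18a3, the vesicular acetylcholine transporter, read 11457, 10483 and 10509 in wild-type and 9066, 6210 and 7625 in mutant neurons (log2 change -0.52 ± 0.16, SE; limma, adjusted p = 0.187). Prph, the intermediate filament peripherin, read 84880, 82716 and 81522 against 58573, 67807 and 67067 (-0.37 ± 0.11, adjusted p = 0.178). The transcription factor genes Lhx4 and Isl2 had log2 changes of -1.02 ± 0.27 (adjusted p = 0.136) and -0.78 ± 0.24 (adjusted p = 0.171). The groups do not overlap for these genes, which was so for 12.8% of all genes on the lower side and 11.6% on the higher. Ret, the receptor for glial-derived neurotrophic factors, read 24593, 29244 and 22213 against 32710, 43635 and 34872 (0.55 ± 0.15, adjusted p = 0.152). Mnx1, another motor neuron factor, read 5978, 7154 and 7513 against 7258, 3482 and 4641, and Chat, the acetylcholine-synthesising enzyme, 830, 496 and 694 against 354, 1070 and 596, both overlapping. Atf3, a marker of axon injury, was too dim to be tested, at 288, 117 and 110 in wild-type and 212, 213 and 247 in mutant neurons.

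Neurofilaments, the structural filaments that set the calibre of motor axons, were not called. Nefl read 169135, 179701 and 173212 in wild-type and 146585, 207530 and 199004 in mutant neurons, Nefm 143038, 145510 and 149594 against 134285, 131175 and 142397, and Nefh 135212, 138850 and 143961 against 123909, 156182 and 164134. Their log2 changes were 0.07 ± 0.14, -0.10 ± 0.11 and 0.08 ± 0.13 (SE, n = 3 per group), with limma adjusted p of 0.862, 0.678 and 0.816. Of the 22 tested genes of the neurofilament and axonal cytoskeleton list none was called and the median change was 0.05. None of 27 axonal transport genes, 21 synaptic release genes, 18 ion channel and pump genes or 19 receptor genes for glutamate, glycine and GABA was called either, with medians of 0.01, -0.03, 0.02 and 0.06. The nearest to the threshold were Kcnc2, a fast delayed rectifier potassium channel, at 254, 582 and 230 in wild-type and 2379, 1308 and 1579 in mutant neurons (limma, adjusted p = 0.0604), and Cacna1e, an R-type calcium channel, at 1307, 1281 and 1454 against 290, 541 and 430 (adjusted p = 0.0786).

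The astrocyte list had the highest median change of the 29 lists with more than 1 tested gene. Of 19 tested astrocyte genes 1, Gja1, was called (by brightest probe set, 0.132% of all genes were called higher), 16 had a positive change, and the median log2 change was 0.69 against -0.01 over all genes. The groups did not overlap for 6 of them, all higher, where 11.6% of all genes were so. Their summed signal was 257577 to 283317 on wild-type arrays, 318086 to 323692 on mutant arrays and 650884 to 725176 in cord, and 18 or 19 of the 19 lay above background on each captured array. The list's median stayed positive in every alternative, between 0.39 and 0.96. In RNA of captured fragments, fewer cells of a type and less RNA per cell cannot be told apart, and the part of astrocyte material in the other results was not tested.

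Gja1 encodes connexin 43, the gap junction protein of astrocytes. Its brightest probe set read 13189, 11282 and 12932 in wild-type, 28843, 35340 and 25386 in mutant neurons and 50550, 52649 and 46133 in cord, a rise of 2.38-fold (log2 change 1.25 ± 0.15, SE; limma, adjusted p = 0.0243). A second probe set rose 2.67-fold (adjusted p = 0.0398), and all 6 tested ones had the higher mean in the mutant. Of these, 1415801_at was below background on every captured array, with a log2 change of 0.008, although cord read 12088 to 12919. Values of 1438973_x_at overlapped between the genotypes (limma, adjusted p = 0.645). Next came Slc4a4, a bicarbonate transporter, at 6828, 5227 and 6292 against 10769, 11662 and 11869 (log2 change 0.91 ± 0.15, limma, adjusted p = 0.0544). Atp1b2, a sodium pump subunit of glia, read 8510, 7816 and 9338 against 16874, 13194 and 17254 (0.87 ± 0.15, adjusted p = 0.0606), and the water channel gene Aqp4 6968, 4354 and 5982 against 18005, 9636 and 12706 (1.20 ± 0.24, adjusted p = 0.0940). These 3 genes did not pass although their groups were separate. Gfap, the intermediate filament of reactive astrocytes, read 374, 389 and 472 against 448, 909 and 755, where cord read 57718 to 62217 (0.69 ± 0.37, adjusted p = 0.397). Its other tested probe sets had opposite signs, with log2 changes of -0.42 and 0.88 (limma, adjusted p = 0.705 and 0.263). The glutamate transporter gene Slc1a2 read 12198, 5321 and 8782 against 4384, 9528 and 7256 and Sox9, a nuclear factor of astrocytes, 392, 465 and 170 against 232, 243 and 278. Both had lower means in the mutant, with groups that overlap, as did Ndrg2, the only other of the 19 with a negative change.

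**Figure D4:**
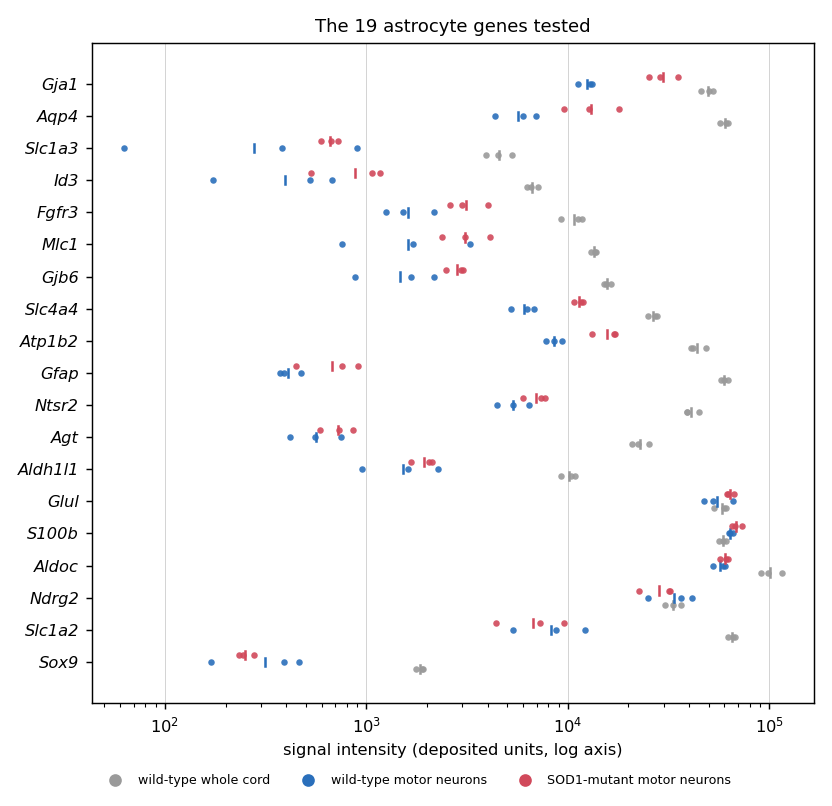
Signal on each array, in deposited units on a log axis, for the 19 tested astrocyte genes, with points for whole cord, wild-type and mutant motor neurons and short vertical lines for means of log2 signal. Gja1 alone passed; Aqp4, Slc4a4 and Atp1b2 had separate groups below whole cord, while Gfap lay far below its cord level in both genotypes.

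The plot of astrocyte genes sets each against its cord level. For Gja1, Aqp4, Slc4a4 and Atp1b2 the mutant points lie between the wild-type points and those of cord, and for S100b and Glul all captured arrays lie near the level of cord.

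Markers of other cells were measured on the same arrays and none of them passed. The summed signal of 16 oligodendrocyte and myelin genes was 328302 to 355825 on wild-type and 387233 to 395170 on mutant arrays, with 894961 to 1034020 in cord, and their median log2 change was 0.12. Mbp, the main myelin protein gene, read 109632, 120123 and 115757 in wild-type and 131077, 160892 and 137261 in mutant neurons (log2 change 0.31 ± 0.12, SE; limma, adjusted p = 0.264). For 19 microglia and macrophage genes the sums were 9821 to 10702 on wild-type and 11384 to 15169 on mutant arrays, against 92955 to 109662 in cord, and the median was 0.23. Of these, Aif1, Itgam and Trem2 were below background on all 6 captured arrays. In all, 11 to 12 of the 19 lay above it on wild-type and 10 to 12 on mutant arrays. Csf1r read 1580, 1616 and 1606 against 1909, 2559 and 2482 (limma, adjusted p = 0.279). The groups did not overlap for 3 of the 19 on the higher side and 1 on the lower, where 11.6% and 12.8% of all genes were so. The complement genes C1qa and C1qb were close to background. C1qa read 275, 30 and 19 against 825, 400 and 570, and C1qb 92, 252 and 320 against 51, 52 and 37, with limma adjusted p of 0.140 and 0.259. In wild-type neurons C1qa was above background on 1 of 3 arrays and C1qb on 2 of 3. In mutant neurons C1qa was above it on 3 arrays and C1qb on 0. For vessels and meninges the sums were 66314 to 89254 and 67320 to 90710, and the median of 19 genes was 0.60. Igf2 and Pecam1 were below background on all captured arrays, while 12 to 15 of the 19 lay above it on wild-type and 14 to 16 on mutant arrays. The groups did not overlap for 5 of these 19 on the higher side and 1 on the lower. Slco1a4 had the smallest p, at 2884, 1311 and 2339 against 4330, 3385 and 3911 (limma, adjusted p = 0.181). For 6 Schwann cell genes the sums were 78404 to 100384 and 79698 to 85465 and the median 0.59, and for 9 inhibitory interneuron genes 88430 to 96190 and 71678 to 94021 and the median 0.54. Sums of the oligodendrocyte and microglia lists did not overlap between genotypes, those of the others did, and their part in the called genes was not tested.

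**Figure D5:**
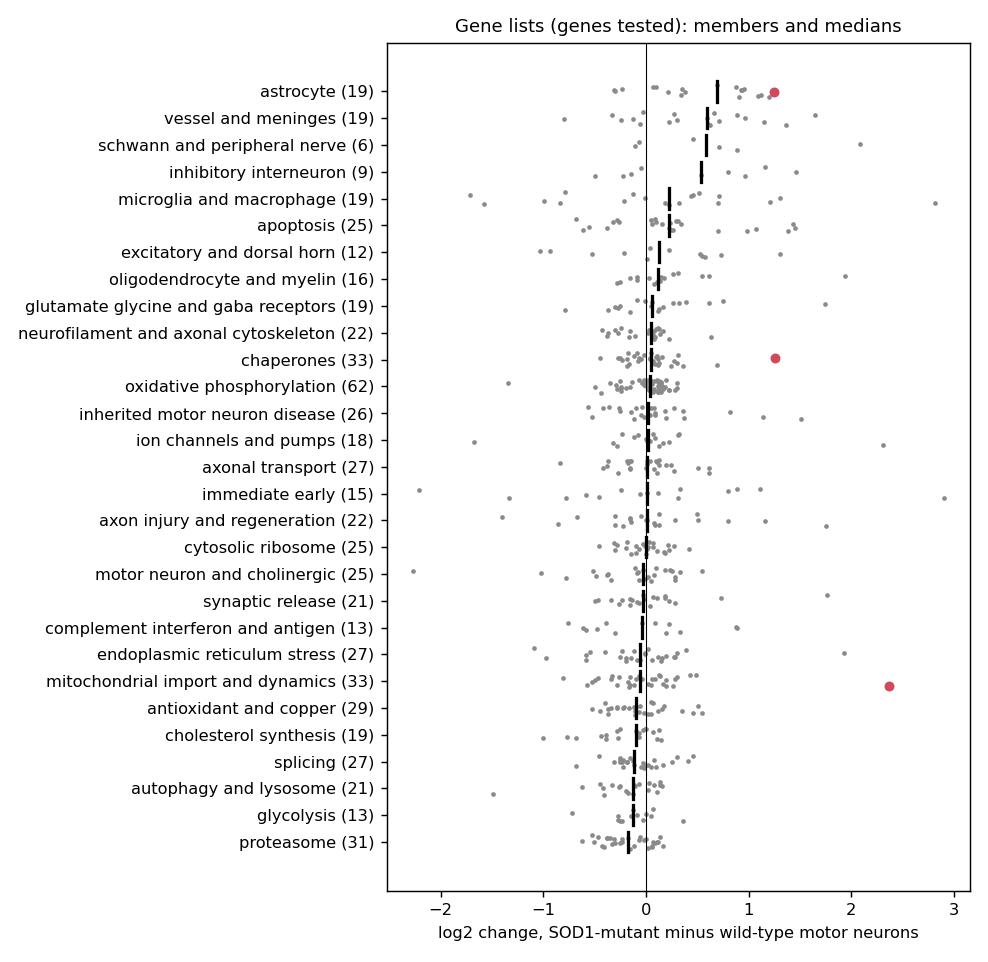
Log2 change, SOD1-mutant minus wild-type motor neurons, of the genes of 29 lists, each gene on its brightest tested probe set, with the number tested in parentheses. Black lines are list medians, which run from -0.17 for the proteasome to 0.69 for astrocytes, and the 3 red points are Gja1, Hspa1b and Chchd4, past an adjusted p of 0.05.

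As the plot of lists shows, most lists were centred near 0 and only 3 genes in them were called by brightest probe set. The fourth list member called, Rps9, was called on a dimmer one.

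Chaperones that hold and refold misfolded proteins had 1 called gene of 33 tested, Hspa1b (by brightest probe set, 0.132% of all genes were called higher). Hspa1b and Hspa1a encode the inducible HSP70, are near copies of each other and may share probes, so their readings are uncertain as to which gene they come from. The brightest probe set of Hspa1b read 3933, 3503 and 4161 in wild-type, 10079, 10398 and 7563 in mutant neurons and 2487, 1799 and 2212 in cord, a rise of 2.39-fold (log2 change 1.26 ± 0.17, SE; limma, adjusted p = 0.0384). A second probe set read 1757, 1056 and 1493 against 4728, 3838 and 3526 (2.82-fold, adjusted p = 0.0460). Hspa1a read 4441, 2957 and 2569 against 5263, 6397 and 4268, which overlap (0.69 ± 0.24, limma, adjusted p = 0.212). The small heat shock proteins of motor neurons, mutated in inherited neuropathies, overlapped between the genotypes: Hspb1 read 51025, 75182 and 68658 against 44372, 80261 and 66986, and Hspb8 57013, 60703 and 61362 against 50868, 72398 and 62333. Cryab, another of this family, read 43208, 56066 and 46029 against 42028, 48327 and 37254. The median of the 33 chaperones was 0.05, with 6 at an unadjusted p of 0.05 on the higher side and 1 on the lower. Of all genes, 8.3% were so on the higher side and 8.66% on the lower.

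The promoters of the HSP70 pair are shown because their genes are induced through heat shock elements. Both are from RefSeq in GRCm38.p6 on the minus strand, Hspa1b at chr17:34959189-34959488 and Hspa1a at chr17:34972107-34972406, and capitals mark a heat shock element core (GAANNTTC) and a CCAAT box (CCAAT or its complement ATTGG). The stretches have the same base at 296 of 300 positions (98.7%), so a promoter match does not separate the genes.
Hspa1b: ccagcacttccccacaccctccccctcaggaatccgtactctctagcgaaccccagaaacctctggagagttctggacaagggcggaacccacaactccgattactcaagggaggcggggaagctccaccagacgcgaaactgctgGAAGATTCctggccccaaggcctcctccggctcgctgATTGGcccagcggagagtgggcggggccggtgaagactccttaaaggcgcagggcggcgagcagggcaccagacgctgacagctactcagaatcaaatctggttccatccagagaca
Hspa1a: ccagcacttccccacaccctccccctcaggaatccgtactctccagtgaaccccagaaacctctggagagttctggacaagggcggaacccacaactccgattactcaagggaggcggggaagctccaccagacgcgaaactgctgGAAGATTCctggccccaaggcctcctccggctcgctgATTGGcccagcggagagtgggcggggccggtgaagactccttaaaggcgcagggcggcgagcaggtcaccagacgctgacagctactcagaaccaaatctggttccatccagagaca
On both strands GAANNTTC was found in 7.86% of 32851 mouse promoters of the same length, TTCNNGAA, the other spacing of the core, in 8.52%, and a CCAAT box in 37.4%. The windows of Tmem87a and Chchd4 printed above hold none of these motifs, which says only that the letters are not there. Of the 41 called genes 32 had a promoter in the table.

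The proteasome, which degrades misfolded protein, was not called at any of its 31 tested subunits. Its members leaned low: 22 had a negative change, 9 had an unadjusted p under 0.05 on the lower side and 0 on the higher, where 8.66% of all genes were on the lower side, and the median log2 change was -0.17. Psmd8, a regulatory subunit, read 17399, 14083 and 16202 in wild-type and 11415, 9526 and 12118 in mutant neurons (-0.53 ± 0.15, SE; limma, adjusted p = 0.150). Psmb4, a core subunit, read 82533, 80479 and 85144 against 57971, 65330 and 67945 (-0.38 ± 0.11, adjusted p = 0.172). The list's median was negative in every alternative, from -0.23 to -0.07. Of 21 autophagy and lysosome genes 14 had a negative change, with a median of -0.13 and 6 on the lower side at an unadjusted p of 0.05.

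Genes of endoplasmic reticulum stress, a response to misfolded protein, were not called among 27 tested. Pdia3, a disulphide isomerase, read 3700, 3135 and 3174 in wild-type and 1793, 1576 and 1686 in mutant neurons (log2 change -0.97 ± 0.19, SE; limma, adjusted p = 0.0809), and Manf, a secreted stress protein, 11847, 10735 and 11245 against 7374, 7579 and 8304 (-0.54 ± 0.13, adjusted p = 0.128). Ddit3, the transcription factor CHOP that marks prolonged stress, read 2250, 2981 and 2854 against 2083, 2264 and 2487, which overlap. Trib3, a target of that response, went the other way at 133, 57 and 268 against 387, 651 and 667 (limma, adjusted p = 0.157). The median of the list was -0.06.

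Besides Chchd4, none of 33 genes of mitochondrial import and dynamics was called (by brightest probe set, 0.132% of all genes were called higher), and the median was -0.06. Timm17a, a subunit of the inner membrane translocase, read 33049, 31138 and 34161 in wild-type and 23677, 21455 and 24664 in mutant neurons (-0.50 ± 0.12, SE; limma, adjusted p = 0.125). Fis1, a mitochondrial fission factor, read 41289, 37447 and 45427 against 26576, 32219 and 31298 (-0.46 ± 0.13, adjusted p = 0.155). None of 62 oxidative phosphorylation genes was called, with a median of 0.04. Among them Cox7c, a small subunit of cytochrome oxidase, read 2147, 1831 and 1827 against 921, 648 and 702 (-1.34 ± 0.25, adjusted p = 0.0764).

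Antioxidant and copper genes, the family to which Sod1 belongs, were not called among 29 tested, and their median was -0.09. The 2 subunits of glutamate cysteine ligase, the first enzyme of glutathione synthesis, went apart: Gclc read 6193, 7038 and 6888 in wild-type and 9800, 9218 and 9528 in mutant neurons, and Gclm 29435, 24302 and 26496 against 19689, 18028 and 21076. Neither passed, with limma adjusted p of 0.142 and 0.161. Of 19 cholesterol synthesis genes 14 had a negative change and none was called. Mvd, a decarboxylase of the mevalonate pathway, read 4161, 5386 and 4359 against 2640, 1972 and 2278 (-1.01 ± 0.19, adjusted p = 0.0807), and the sterol isomerase gene Ebp 10854, 12169 and 12690 against 5925, 7585 and 7518 (-0.77 ± 0.15, adjusted p = 0.0910).

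Genes of death, injury and inflammation were not called. Among 25 apoptosis genes the median change was 0.22, with 18 positive. Bcl2l11, the pro-apoptotic protein BIM, read 1015, 1361 and 681 in wild-type and 1775, 2887 and 3373 in mutant neurons (log2 change 1.38 ± 0.32, SE; limma, adjusted p = 0.114), and Casp1, the inflammatory caspase, 106, 89 and 154 against 320, 454 and 271 (1.43 ± 0.49, adjusted p = 0.212). Casp1 lay below background on wild-type replicates 1 and 2. Of 22 axon injury genes none was called and the median was 0.01. Il6st, the shared receptor of interleukin 6 cytokines, read 10762, 5683 and 8640 against 14781, 13713 and 13698 (adjusted p = 0.139), and Gadd45a, an injury-induced gene, 3342, 2781 and 3088 against 2011, 1693 and 2072 (adjusted p = 0.156). Of 13 complement, interferon and antigen genes Tapbp, a chaperone of antigen loading, read 16236, 13129 and 13360 against 6775, 8866 and 9795 (-0.76 ± 0.17, limma, adjusted p = 0.110), and B2m, the light chain of class I molecules, 15933, 16397 and 13279 against 8579, 12752 and 8868 (-0.61 ± 0.18, adjusted p = 0.160). The 15 immediate early genes tested went both ways, with Egr3 at 36, 78 and 6 against 641, 158 and 489 and Ier2 at 417, 632 and 470 against 216, 22 and 122. Egr3 lay below background on all wild-type arrays and on mutant replicate 2, and Ier2 on mutant replicates 2 and 3.

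Among 26 genes of inherited motor neuron disease, Sod1 included, none was called and the median change was 0.02. Matr3, an RNA-binding nuclear matrix protein, read 53391, 60322 and 57521 in wild-type and 72540, 82844 and 65487 in mutant neurons (0.36 ± 0.13, SE; limma, adjusted p = 0.222), Spast, a microtubule-severing enzyme, 10005, 10081 and 9747 against 11984, 13320 and 13357 (0.37 ± 0.13, adjusted p = 0.216), and Atxn2, an RNA-binding protein, 19633, 18478 and 17018 against 16218, 8818 and 13449 (-0.56 ± 0.20, adjusted p = 0.239). Of 27 splicing genes 18 had a negative change (median -0.11), of 13 glycolysis genes 9 (median -0.13), and of 12 excitatory and dorsal horn genes 4 (median 0.13), without a call.

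Large changes that did not pass were found among dim genes. On the higher side, Acox3, a peroxisomal oxidase, read 18, 14 and 18 in wild-type and 195, 495 and 326 in mutant neurons (at least 2.12-fold, limma, adjusted p = 0.0921), and Kif26a, an unconventional kinesin, 58, 93 and 86 against 368, 863 and 652 (at least 3.85-fold, adjusted p = 0.0783). On the lower side, Mfap2, a microfibril protein, read 519, 612 and 509 against 43, 113 and 31 (at least 2.70-fold, adjusted p = 0.0756), and Tcf3, a transcription factor, 466, 553 and 335 against 60, 70 and 95 (at least 2.21-fold, adjusted p = 0.103). Slit3, an axon guidance ligand, had values of 682, 1106 and 1195 against 333, 26 and 505 (adjusted p = 0.214). In each of these genes the arrays of the genotypes were separate. For all but Slit3 the dimmer group lay below background on all 3 arrays, and for Slit3 2 of 3 mutant arrays were above it.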

How the data were processed

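Signal was measured on single-channel Affymetrix mouse arrays, and groups and replicate numbers were taken from the descriptions and titles. The deposited values are the authors' linear signal intensity for each probe set. No source used here gives the software that made them, and every array had the same trimmed mean of 2500 with 2% taken off each end, so the deposited intensities had been scaled together. Dim probe sets are understated by the added pseudocount and read close to background.

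Of 45101 probe sets, 64 are controls and were dropped. Values were taken as log2(signal + 20.3), where 20.3 is the 10th percentile of the table, and a probe set was tested if the average of its 3 group means exceeded the 40th percentile (a signal of 247). The platform annotation, which can be old, named a single gene for 34945 probe sets, more than 1 for 932 and no gene for 9160, and 34741 of the symbols matched the RefSeq table of GRCm38.p6, used for names and gene order. A gene was represented by its brightest tested probe set unless another is named, with brightness taken as the average of the 3 group means, cord included. The 6 captured arrays were fitted in R 4.3.3 by limma 3.58.1 (lmFit, then trended eBayes). Tests were two-sided, and p-values were adjusted by Benjamini-Hochberg over all probe sets tested. The moderated test had 10.14 degrees of freedom, 4 of them from the arrays. For a group with no array above background the change is a bound, written as at least N-fold. It compares the bright group's mean log2 value with that of the dim group after each dim array was raised to its background level where it lay below. Lists are described by counts and medians without a test. Promoters are RefSeq's. The fit was checked on simulated arrays. Python 3.11.15 with matplotlib 3.10.9 drew the figures.

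The 30 lists (752 genes, 635 tested) and the genes always shown were chosen with earlier results of these data known. The rule for named genes took the 20 largest rises and 20 largest falls of the genes called (15 fell), a set list of disease and identity genes, from each list the members called and the 3 of smallest p, and the 10 largest rises and 10 largest falls whose arrays did not overlap between groups. The text describes some of these. Kcnj10, Riok3, Dym, Phtf1, Aqp4, Slc1a2, Sox9, S100b, Glul and the markers below background were named with their values seen. The alternatives were quantile normalization, centring on the median, dropping the filter or setting it at the 60th percentile, multiplying or dividing the pseudocount by 4, a joint fit of all 9 arrays, eBayes without a trend, array weights, a block for replicate number, values raised to background, the Gapdh control ratio as a covariate, the mean over a gene's probe sets, and leaving out each array in turn. The control ratios were also taken against the middle probe set.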

Additional observations from a re-analysis of the deposited data

How the results depend on the processing

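The number of probe sets called, 51, fell to 34 after quantile normalization, 40 with the smaller pseudocount, 32 with the Gapdh control ratio as a covariate, 7 after centring and 5 without an intensity trend, and it was 54 with the larger pseudocount, 66 without a filter, 74 with the filter at the 60th percentile, 105 with values raised to background, 1211 with all 9 arrays in 1 fit and 13743 with array weights. The array weights put 10.8 and 5.52 on the third replicate of each group and 0.28 to 0.43 on the other arrays. Leaving out each array in turn gave 6 to 29 calls. With the replicate number as a block 372 passed, 191 higher and 181 lower. Deviations of same-numbered arrays from their group means correlated at 0.13, 0.16 and 0.0004, and those of differently numbered arrays at -0.18 to 0.06. No label says that the numbers pair the arrays, so the main fit and the exact tests are unpaired. Whether arrays of the same number were handled together was not tested. Against the middle probe set, the control ratio difference was 0.36 for Gapdh (exact p = 0.4), 0.37 for Actb (exact p = 0.6) and, in the other direction, -1.78 for Tfrc (exact p = 0.2). No called result changed direction in the alternatives run, which is a description, since the calls were picked on these same arrays. Calls of single genes were lost in 324 combinations of result and alternative and gained in 175, and the causes were not tested. The number of arrays limits the precision, and signal near background limits dim genes.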
